A study of Mus musculus with 6 samples.

Results

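Genes of the extracellular matrix and of hepatic stellate cells were compared between livers of control mice and livers of mice kept in isolation for 30 days. The set holds 40 genes chosen by symbol: 12 collagens, 7 other matrix proteins, 8 matrix enzymes and inhibitors, 8 stellate cell markers, and 5 genes of transforming growth factor beta (TGF-beta) signalling and related factors. A gene was found where the platform annotation gave a probe set that symbol and no other, which held for 39 of the 40 genes, among 18193 genes in all. Loxl2 had no such probe set. The 39 genes carried 92 probe sets, of which 61 passed a filter on mean signal and were tested, for 35 genes. Lox, Loxl1, Timp1 and Des had no probe set above the filter and are given as signals only.

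All 6 samples were livers of male BALB/c mice labelled as 10 weeks old, with 3 arrays per group. They came in at 4 weeks, and cages held 5 mice for the first 10 days. Those in the isolated group were then moved to single cages, with cages screened from each other and with less bedding than control cages had, while the control group was labelled only as control. RNA came from whole liver, so fewer cells of a type and less RNA per cell cannot be told apart. The labels number the arrays but do not state that each came from a separate animal, so p-values measure the spread between these arrays, which may be partly technical. The defining hepatocyte marker Alb read 9947 to 10948 over the 6 arrays. The RNA integrity controls, the signal of the 3′ over that of the 5′ probe set, ran from 0.689 to 0.719 for Gapdh and from 1.99 to 2.35 for Actb, with both groups overlapping.

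Stellate cells lie between hepatocytes and the sinusoidal endothelium and store vitamin A as retinyl esters. When activated by injury, they take on a contractile myofibroblast form and secrete fibrillar collagens. TGF-beta is the best known signal for that change, acting through a pair of receptor kinases and the SMAD transcription factors. Metalloproteinases degrade matrix, TIMP proteins inhibit them, and lysyl oxidases cross-link collagen.

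Isolated livers had higher signals of Snai2 and Vasn, and no other member passed the test in either direction. Snai2 encodes Slug, a zinc finger repressor of the Snail family that is known for its part in epithelial to mesenchymal transition and, in liver, as a promoter of lipogenesis. Vasn encodes vasorin, a membrane protein that binds TGF-beta and dampens its signal. Of the 61 tested member probe sets, 3 were higher and 0 lower at a limma adjusted p under 0.05, where 0.773% and 0.857% of all 22519 tested probe sets were called in those directions. By the brightest tested probe set of each gene, 2 of 35 members were higher and 0 lower, against 0.901% and 0.847% of 10986 genes. At an unadjusted limma p under 0.05, 5 members were higher and 0 lower, against 7.94% and 4.4% of genes. Both calls ended in a limma fit without an intensity trend, where 0 member probe sets were called, against 0.0666% of all probe sets higher and 0.0711% lower. With a robust trend the brighter Snai2 probe set also lost its call (adjusted p 0.233), while the dimmer one and Vasn kept theirs (0.0189 and 0.0481).

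The 250 bases before the RefSeq transcription start of Vasn, the called member with an entry in the promoter table, are shown with those of Id2. Id2 is an inhibitor of basic helix-loop-helix factors that is regulated through SMAD proteins, and it is the gene of the surrounding pathway lists that changed, as described further on. The sequences are from GRCm38.p6, at chr16:4639695-4639944 on the plus strand for Vasn and chr12:25096093-25096342 on the minus strand for Id2, each read 5′ to 3′ along the gene. Capitals mark matches to CAGAC, part of a known SMAD binding element, to GGCGCC, a SMAD site described in genes that respond to bone morphogenetic proteins, or to CAGGTG, the E-box that Snail family proteins bind.
Vasn: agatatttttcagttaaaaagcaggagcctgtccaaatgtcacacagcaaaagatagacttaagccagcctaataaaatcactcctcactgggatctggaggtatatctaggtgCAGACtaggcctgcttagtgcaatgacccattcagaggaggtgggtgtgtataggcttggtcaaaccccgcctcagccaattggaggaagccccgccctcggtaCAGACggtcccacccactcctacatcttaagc
Id2: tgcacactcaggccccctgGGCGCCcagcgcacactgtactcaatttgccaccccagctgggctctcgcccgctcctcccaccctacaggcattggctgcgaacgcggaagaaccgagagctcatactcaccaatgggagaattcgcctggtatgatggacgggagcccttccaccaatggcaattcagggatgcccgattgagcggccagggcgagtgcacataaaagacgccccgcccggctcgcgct
On both strands, Vasn held 2 matches to CAGAC, 136 and 32 bases before the start, and Id2 held 1 match to GGCGCC, 231 bases before it. Neither window held CAGGTG. Over all 32851 windows of that length in the table, 42.2% held CAGAC, 9.59% held GGCGCC and 17.2% held CAGGTG, so the Vasn match is a common one. The letters describe the windows and show no binding.

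Snai2 had a pair of probe sets on the array, and both were called. Signals are given in MAS5 units and in the order of replicates 1, 2 and 3. The brighter one, 1447643_x_at, gave control signals of 29, 18.3 and 63.2 and isolated signals of 77.9, 149.5 and 199. Every isolated array lay above every control array, with isolated replicate 1 closest to the controls. The mean was 36.9 ± 23.4 in controls and 142 ± 60.8 in isolated mice (SD, n = 3 each), and limma gave a 3.89-fold rise on the log2(signal + 2) scale at an adjusted p of 0.00331. The dimmer one, 1418673_at, read 21.4, 3.8 and 8.79 in control livers and 41.3, 33.5 and 43.1 in isolated livers. Here the isolated arrays were close together, and the groups again did not overlap. The log2 change was 1.85 ± 0.46 (SE), at an adjusted p of 0.0409 by limma, and leaving out 1 array at a time it missed the threshold in 5 of 6 fits. Its control mean of 11.3 lay below the filter's floor of 18 and its isolated mean of 39.3 above it, so it was tested only through the isolated arrays, and its call is no separate support for Snai2. With a pseudocount of 16 its log2 change was 1.06 (limma, adjusted p 0.0243).

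Vasn also had a pair of probe sets, and they disagreed. The called one, 1455812_x_at, read 43.8, 67.4 and 60 in control livers and 102, 201 and 286 in isolated livers, so the groups did not overlap. Control arrays averaged 57.1 ± 12.1 and isolated arrays 196 ± 92.4 (SD, n = 3 each), a rise of 3.13-fold at an adjusted p of 0.00219 by limma. The other one, 1427894_at, read 73.5, 47.6 and 77.5 in control livers and 68.3, 61.4 and 115 in isolated livers. Those groups overlapped, and its log2 change was 0.27 with a 95% interval of -0.26 to 0.80 and a limma adjusted p of 0.796. Averaged over both, the log2 change of Vasn was 0.96 with a limma adjusted p of 0.0941. The suffix _x_at, carried by the brighter Snai2 probe set and the called Vasn probe set, marks sets in which some probes can also bind other transcripts. Cross-binding was not tested.

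**Figure D1:**
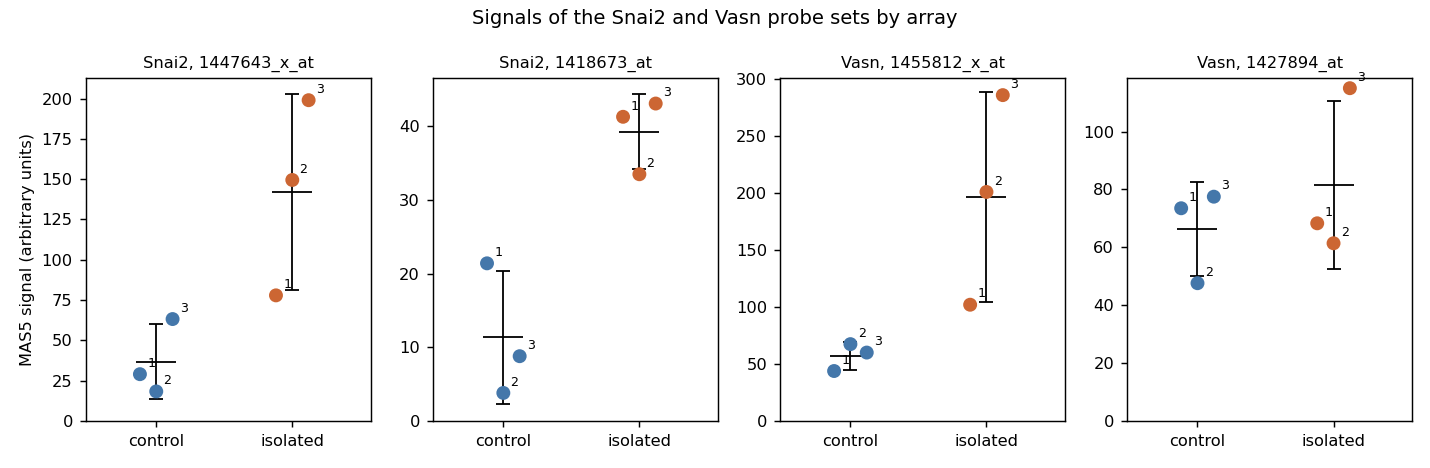
MAS5 signal (linear axis from 0) of each Snai2 and Vasn probe set, 1 point per array with its replicate number, and a bar for the group mean with its SD (n = 3). Both Snai2 probe sets and 1455812_x_at of Vasn separate the groups, while 1427894_at of Vasn overlaps.

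The called probe sets with the suffix _x_at were highest on isolated replicates 2 and 3, the arrays on which some markers of fat tissue were also high. Adipoq, the adipocyte hormone adiponectin, read 4.38, 8.48 and 15.6 in control livers and 3.78, 59.5 and 54.8 in isolated livers. Retn, another adipocyte hormone, read 2.39, 2.78 and 3.88 against 2.65, 20 and 42.2. The summed signal of the 6 adipocyte markers with a probe set, of 8 listed, was 203 to 295 in controls and 284 to 544 in isolated mice, while the defining marker Lep stayed at 3.3 or below on every array. Fabp4, a tested marker that made up much of that sum, was also highest on isolated replicates 2 and 3. It read 117, 202 and 157 against 203, 300.3 and 404, without overlap. Its log2 change was 0.90 (limma, adjusted p 0.0578). Other markers of the list did not follow this order. Lipe, the hormone-sensitive lipase, read 63.4, 61.7 and 66.2 against 61.3, 76.7 and 38.6, and Cidea, a lipid droplet protein, 13.1, 18.3 and 3.58 against 12.3, 14.6 and 1.76, both lowest on isolated replicate 3. With isolated replicates 2 and 3 both left out, so that the lone isolated array is taken to vary as the controls do, the log2 change was 1.21 for the brighter Snai2 probe set, 1.93 for the dimmer and 0.83 for Vasn, with limma adjusted p of 0.245, 0.428 and 0.346. The part of fat tissue in these signals was not tested.

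The other TGF-beta genes of the set did not pass the test. Tgfb1, the ligand, read 32.5, 63 and 34.1 in control livers and 39, 25.5 and 30.9 in isolated livers, with 1 high control array and overlapping groups. Its log2 change was -0.37 with a 95% interval of -1 to 0.26. The receptor kinase gene Tgfbr1 read 359, 394 and 429 in control livers and 355, 317 and 437 in isolated livers, with a log2 change of -0.10. Its partner Tgfbr2 read 150.4, 122 and 165 against 109, 184 and 175, with a log2 change of 0.07. The groups overlapped for both receptors, and their limma adjusted p were 0.909 and 0.955.

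Collagen genes did not separate the groups. By the brightest probe set of each, 0 of 12 collagens were called by limma in either direction, 0 had an unadjusted p under 0.05 and 0 had groups that did not overlap, where 16% of all genes did not overlap. Of all genes, 0.901% were called higher and 0.847% lower, and 7.94% and 4.4% had that unadjusted p. Their log2 changes ran from -0.24 to 0.48, with a median of 0.13 against 0.05 over all genes tested, and 9 were above 0 and 3 below. Col3a1, a fibrillar collagen, read 193, 414 and 305 in control livers and 277, 519 and 459 in isolated livers. It had the largest log2 change of the collagens by their brightest probe set, 0.48 with a 95% interval of -0.04 to 0.99, and a limma adjusted p of 0.494. Col5a2, which forms fibrils with the major collagens, followed a similar order over the arrays, at 27.3, 54.8 and 41.2 against 40.3, 61.6 and 58.8. In both genes control replicate 1 was lowest and control replicate 2 lay above isolated replicate 1.

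Col14a1, a collagen that sits on fibril surfaces, read 166, 288 and 211 in control livers and 289, 223 and 360.5 in isolated livers, with a log2 change of 0.40 and an interval of -0.05 to 0.84. Col18a1, a basement membrane collagen made also by hepatocytes, was the collagen with the highest signal, at 1592, 1522 and 1668 against 1471, 1166 and 1627. Its log2 change was -0.18 with an interval of -0.48 to 0.13. Signals of different probe sets depend on their probes, so such an order is not an order of transcript levels. The chains of type I collagen, the main scar collagen, did not pass the test by any probe set. Col1a1 read 14.7, 22 and 23.4 against 22.8, 23.7 and 24, near the filter's floor of 18. Col1a2 read 115, 183 and 157 against 128, 189.6 and 196, with a log2 change of 0.17 and an interval of -0.28 to 0.62. The second probe set of Col1a1, at 8.76, 24.7 and 6.74 against 25, 43 and 20.7, had a log2 change of 1.15 with a limma adjusted p of 0.313. Its control mean of 13.4 lay below the filter's floor and its isolated mean of 29.6 above it, so it was tested only through the isolated arrays.

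Col6a2, a chain of the microfibrillar collagen VI, had tested probe sets of opposite sign. The brighter, 1426947_x_at, read 88, 82.9 and 63.1 in control livers and 61.3, 61.5 and 73.8 in isolated livers, a log2 change of -0.24. The dimmer, 1452250_a_at, read 7.73, 46 and 11.3 against 30.4, 58.3 and 57.6, a log2 change of 1.41 with a limma adjusted p of 0.154. On the filter's log2 scale its control mean lay below the floor of 4.32 and its isolated mean above. It was thus tested only through the isolated arrays. Its groups overlapped through control replicate 2. With 1 array left out its limma adjusted p ran from 0.00269, without that array, to 0.403. The other chains Col6a1 and Col6a3 had log2 changes of 0.22 and -0.01. The type IV basement membrane chains Col4a1 and Col4a2 had log2 changes of 0.01 and 0.09, and Col5a1 of 0.06 by its representative probe set and -0.30 by its other tested one.

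**Figure D2:**
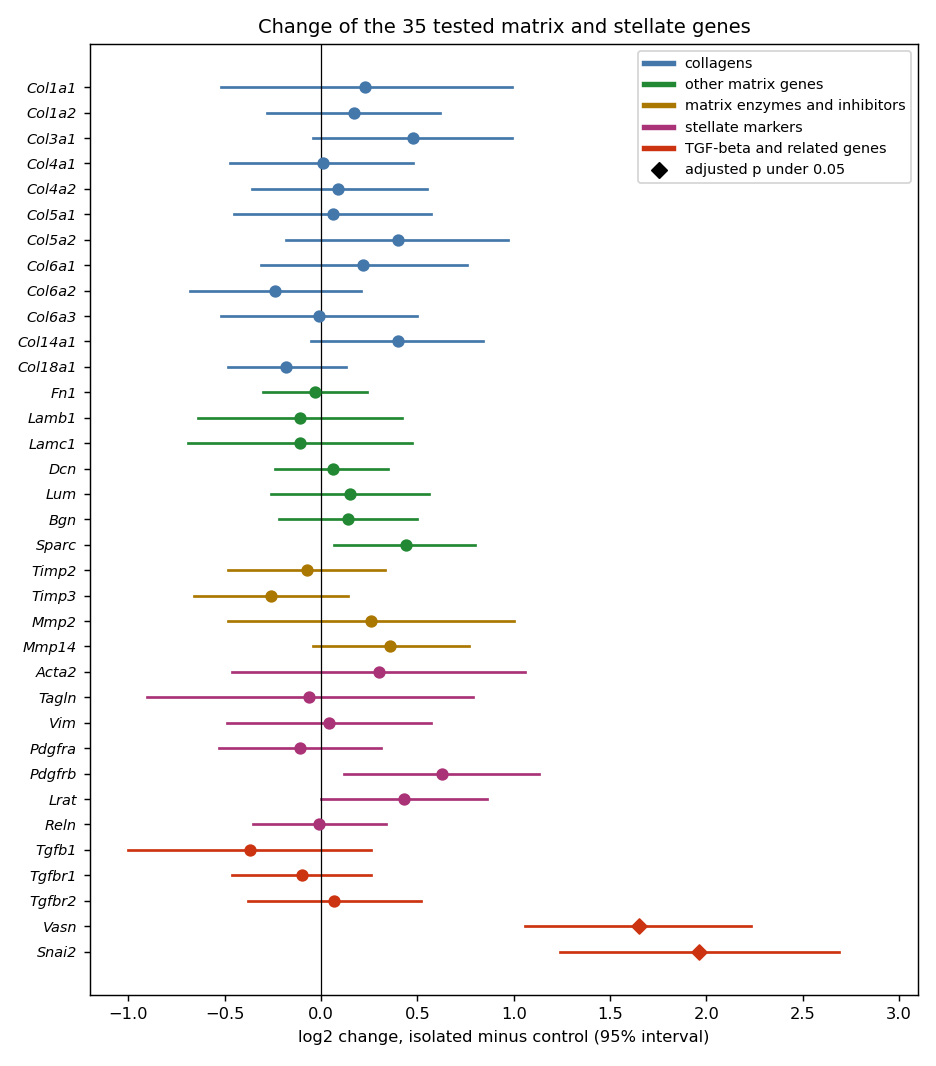
Log2 change of isolated against control (points, with 95% limma intervals) for the brightest tested probe set of 35 members, coloured by role. Diamonds mark the 2 called genes, Snai2 and Vasn, and the intervals of most other genes include 0.

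Of the 7 other matrix genes, 0 were called by limma, against 0.901% of all genes higher and 0.847% lower. At an unadjusted limma p under 0.05, 1 was higher, Sparc, and 0 lower, where 7.94% and 4.4% of all genes were. Sparc was also the 1 gene of this role whose groups did not overlap, where 16% of all genes did not overlap. Sparc, a secreted collagen-binding glycoprotein made by stellate and endothelial cells, read 248, 329 and 309 in control livers and 393, 352 and 453 in isolated livers. The groups did not overlap, and its second probe set, at 117, 150.5 and 114 against 155, 158 and 189, did not overlap either. Their log2 changes were 0.44 ± 0.17 and 0.40 ± 0.19 (SE) with limma adjusted p of 0.303 and 0.435. The remaining probe set, too dim to be tested, went the other way, at 28, 21.3 and 25.2 against 9.22, 13.5 and 14.2, so the average over all 3 had a log2 change of -0.03.

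The remaining matrix genes lay closer together. Bgn, the small proteoglycan biglycan, read 495, 498 and 347 in control livers and 501, 513 and 443 in isolated livers, a log2 change of 0.14. Lum, the related proteoglycan lumican, read 185, 202 and 244 against 201, 306 and 203, a log2 change of 0.15. Lamb1, a laminin chain of basement membranes, read 36.4, 48.6 and 45.7 against 44.6, 41 and 34.5, a log2 change of -0.11. All 3 overlapped between groups. Dcn, the proteoglycan decorin, had a log2 change of 0.06 with a 95% interval of -0.24 to 0.35, and Fn1, which hepatocytes also secrete as plasma fibronectin, of -0.03 with -0.30 to 0.24. These were the narrowest intervals of the role, on means of 1587 ± 235 and 4472 ± 137 in controls (SD, n = 3). Lamc1 had a log2 change of -0.11.

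Among matrix enzymes and inhibitors, 4 of the 7 genes with a probe set were tested and 0 were called by limma, with 0 at an unadjusted p under 0.05. Over all genes, 0.901% were called higher and 0.847% lower, and 7.94% and 4.4% at that unadjusted p. Mmp14, a membrane-bound protease that activates pro-Mmp2, read 84, 113 and 109 in control livers and 135, 131 and 125 in isolated livers. The groups did not overlap, with a log2 change of 0.36 (limma, adjusted p 0.519.) Its second probe set, at 29.6, 55 and 41.1 against 59, 66.7 and 54, overlapped between groups with a log2 change of 0.53, and its last had a log2 change of -0.04. Timp3, an inhibitor bound to the matrix, read 99.6, 98.6 and 113 in control livers and 89.9, 86.2 and 83.1 in isolated livers. It was the 1 member whose isolated arrays were all lower, with a log2 change of -0.26 (limma, adjusted p 0.705), and its other tested probe sets had log2 changes of -0.34 and -0.48.

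Mmp2, a gelatinase, read 20.9, 35.4 and 33.2 in control livers and 19.8, 60.9 and 35.6 in isolated livers, with isolated replicate 2 alone above the controls by a wide margin. Timp2, its partner inhibitor, read 97.4, 104 and 104 against 86.5, 93.2 and 112. Timp1, the inhibitor typically induced in liver injury, was below the filter, at 9.36, 14.4 and 16.3 against 0.956, 14 and 22.8. The lysyl oxidase Loxl1 was also below it, at 2.32, 18.6 and 15.2 against 10.8, 36 and 27.9 by its brighter probe set. Lox read 18.4, 1.08 and 5.68 against 14.5, 18.5 and 4.64. These dim values overlapped widely between groups.

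Stellate markers had 2 of 7 tested genes higher at an unadjusted limma p under 0.05, 0 lower and 0 called, where 7.94% of all genes were higher and 4.4% lower at that p. Pdgfrb, the receptor for platelet-derived growth factor on stellate cells and pericytes, read 51.5, 68 and 55.4 in control livers and 94.5, 62.7 and 125 in isolated livers. Isolated replicate 2 fell among the controls, and the log2 change was 0.63 ± 0.24 (SE; limma, adjusted p 0.279). Lrat, which esterifies retinol for storage and marks quiescent stellate cells, read 84.6, 103 and 71.3 in control livers and 105, 136 and 109 in isolated livers. The groups did not overlap, by a small margin, and the log2 change was 0.43 ± 0.21 (SE; limma, adjusted p 0.435). Pdgfra, a receptor shared by stellate cells and fibroblasts, read 73.5, 90.6 and 76.3 against 74.8, 76.6 and 70.2, a log2 change of -0.11. Reln, the secreted glycoprotein reelin made by stellate cells, had a log2 change of -0.01 with a 95% interval of -0.35 to 0.34. Des, an intermediate filament of stellate cells, was too dim to be tested, at 4.17, 24.2 and 5.71 against 12.7, 14.4 and 19.1.

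The contractile genes varied more within groups than between them. Acta2, the smooth muscle actin that marks activated stellate cells and vessel walls, read 73.9, 109.7 and 192 in control livers and 82, 320.4 and 111 in isolated livers. Its log2 change was 0.30 with a 95% interval of -0.46 to 1.06, and without isolated replicate 2 it was -0.28. Tagln, an actin-binding protein of contractile cells named after its values were seen, read 25, 51.7 and 111 in control livers and 30.2, 95.3 and 44.6 in isolated livers. Both genes were highest on control replicate 3 and isolated replicate 2. Some smooth muscle markers followed a similar order. Myh11, the smooth muscle myosin heavy chain, read 4.84, 25.5 and 29.4 against 17.4, 57.8 and 7.26, and Actg2, an enteric smooth muscle actin below the filter, read 0.916, 22.2 and 23 against 0.677, 36.5 and 4.04. The summed signal of the 5 smooth muscle markers was 413 to 525 in controls and 465 to 559.5 in isolated mice, and Cnn1 stayed at 10.2 or below. Most of that sum was Mylk, the myosin light chain kinase, which had another order, at 397, 414 and 447 against 427, 432 and 502. Their part in the Acta2 and Tagln signals was not tested.

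Vim, an intermediate filament of mesenchymal cells, had its own high array. It read 248, 679 and 319.9 in control livers and 327, 451 and 397 in isolated livers. Control replicate 2 was highest by all 3 probe sets, and the log2 change was 0.04 with a 95% interval of -0.49 to 0.57.

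**Figure D3:**
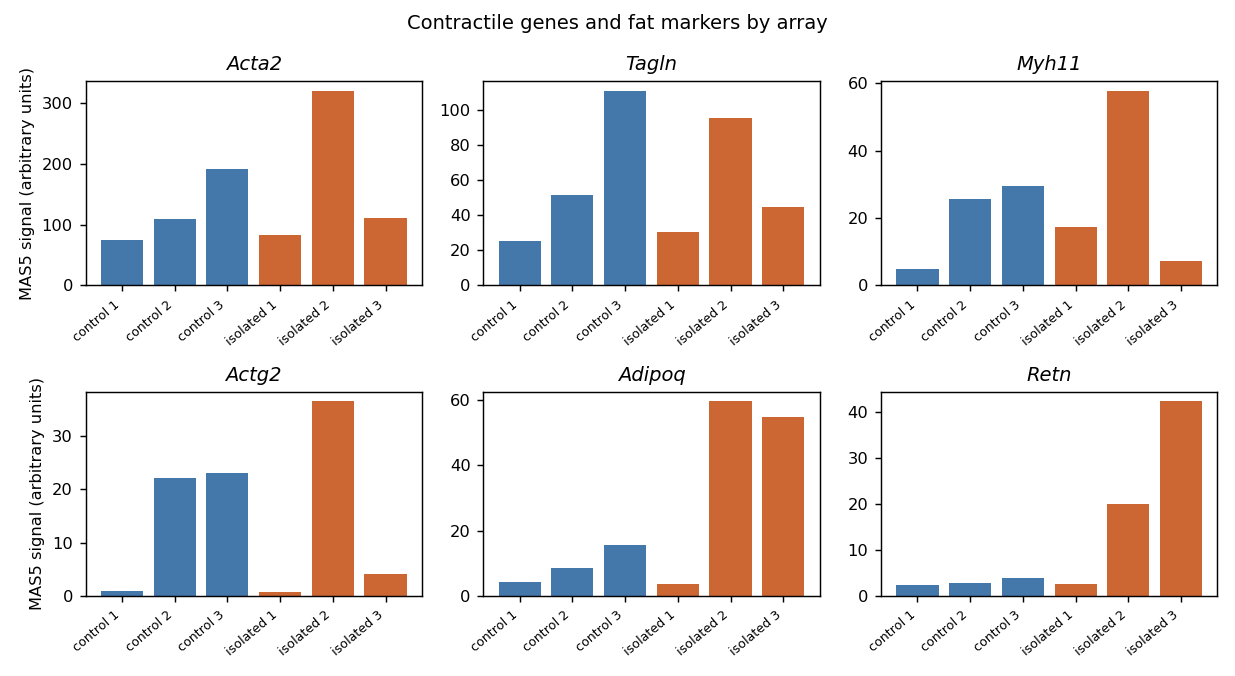
MAS5 signal (bars from 0, linear axes) on each array for the contractile genes Acta2, Tagln, Myh11 and Actg2 and the fat markers Adipoq and Retn. Blue bars are control arrays and orange bars isolated arrays, with Acta2 at 320.4 on isolated replicate 2 and Adipoq at 59.5 and 54.8 on isolated replicates 2 and 3.

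Set side by side, the roles shared a pattern over arrays rather than over groups. Relative to the control mean of each gene, the median log2 value of the 12 collagens was -0.37, 0.18 and 0.06 in control livers and -0.14, 0.13 and 0.43 in isolated livers. That of the 7 tested stellate markers was -0.16, 0.22 and -0.06 against -0.09, 0.25 and 0.07. In both roles control replicate 1 was the lowest control array and isolated replicate 1 the lowest isolated array. Arrays also differed in median signal over all probe sets, at 18.4, 21.8 and 22.1 in control livers and 19.4, 18.4 and 21.9 in isolated livers. The part of array brightness in the pattern was not tested. The median log2 change per gene was 0.06 for other matrix genes, 0.09 for enzymes and inhibitors, 0.04 for stellate markers and 0.07 for the TGF-beta role, against 0.05 over all genes tested. Over the 35 genes, 5 had isolated arrays that were all higher (Sparc, Mmp14, Lrat, Vasn and Snai2) and 1 all lower, where 10.8% and 5.17% of all genes did so.

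**Figure D4:**
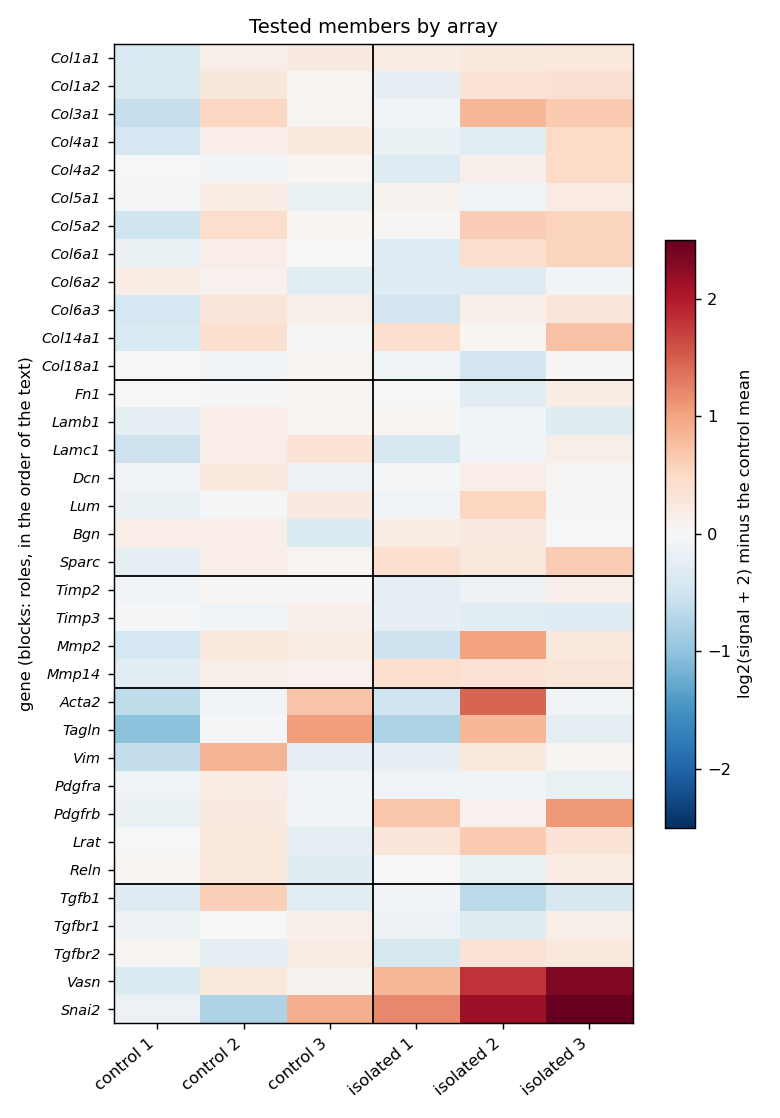
Log2(signal + 2) of each tested member on each array, minus the mean of that gene in controls (red higher, blue lower), with horizontal lines between roles and a vertical line between groups. Snai2 and Vasn are red on all 3 isolated arrays, while the collagens differ between arrays within each group.

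Wider lists of matrix and TGF-beta genes were then read from the same fit. Of 66 tested genes in 5 lists, 0 were higher and 1 lower by limma, against 0.901% and 0.847% of all genes, with 2 and 7 at an unadjusted p under 0.05, against 7.94% and 4.4%. The 1 call was in TGF-beta signalling, where 24 genes were tested. Id2, a target of SMAD signalling, read 2064, 2755 and 2281 in control livers and 1501, 1434 and 1662 in isolated livers. The groups did not overlap, and Id2 fell by 0.62 on the log2 scale (limma, adjusted p 0.0247). Id2 missed the threshold without control replicate 2 (0.198), control replicate 3 (0.0628) or isolated replicate 1 (0.0691), with no filter (0.114), without the intensity trend (0.271), with isolated replicates 2 and 3 both left out (0.115) or averaged over its probe sets (0.254). A second probe set of Id2 was also called lower, with a log2 change of -0.75.

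Other TGF-beta genes gave values on either side. Tgif1, a repressor of SMAD-driven transcription, read 84.5, 78.6 and 92.5 in control livers and 48.9, 40 and 55.2 in isolated livers, without overlap. Its log2 change was -0.81 (limma, adjusted p 0.0675, or 0.0289 with each array centred on its median). With 1 array left out its limma adjusted p ran from 0.0587 to 0.216, short of the threshold each time. Ccn2, the connective tissue growth factor induced by TGF-beta, read 96.2, 239 and 221 in control livers and 92.1, 122 and 69.8 in isolated livers. The groups of Ccn2 overlapped through control replicate 1, with a log2 change of -0.89 (limma, adjusted p 0.144). With 1 array left out its limma adjusted p ran from 0.00323, without that array, to 0.453. In all, 10 of the 24 had log2 changes above 0 and 14 below, with a median of -0.09.

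In the other lists limma called 0 genes, where 0.901% of all genes were higher and 0.847% lower. At an unadjusted p under 0.05 those shares were 7.94% and 4.4%. Of 12 genes that process collagen, 0 had an unadjusted p under 0.05, and P3h1, a prolyl hydroxylase, and P4hb, protein disulfide isomerase, had log2 changes of 0.50 and 0.21. Of 18 genes of basement membrane and other matrix, 1 was lower and 0 higher at that p. It was Col16a1, at 38.2, 64.4 and 43.9 in control livers and 12.9, 26.1 and 51.8 in isolated livers, and Thbs1, an activator of latent TGF-beta, had a log2 change of -0.56. Of 7 genes of matrix turnover and 5 of the Snail group, 0 reached that p, with log2 changes of -0.44 for Adamts5, 0.22 for Mmp19, 0.39 for Cdh1 (the epithelial cadherin that Snail proteins repress) and -0.15 for Cdh2.

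Markers of the cells that could contribute these transcripts were read in the same way. None of 11 further stellate genes was called by limma, with 0 higher and 1 lower at an unadjusted p under 0.05 and a median log2 change of 0.11. Over all genes, 0.901% were called higher and 0.847% lower, and 7.94% and 4.4% at that unadjusted p. The lower one was Hgf, the hepatocyte growth factor, at 78.8, 77.3 and 70.4 in control livers and 42, 42.4 and 51.2 in isolated livers, with a log2 change of -0.72 (limma, adjusted p 0.124.) The 10 sinusoidal endothelial genes and the 8 tested Kupffer cell genes had 0 calls by limma and 0 at an unadjusted p under 0.05, with median log2 changes of -0.09 and -0.14. Summed signals overlapped between groups for stellate cells (1969 to 2518 against 1895 to 2494), sinusoidal endothelium and Kupffer cells. Most of the stellate sum was Colec11, Ecm1 and Rgs5, with control means of 719, 616 and 449.8, so dimmer markers such as Hgf counted little. Summed signals of the 5 measured cholangiocyte genes were 44.8 to 88.9 in controls and 90.5 to 100.2 in isolated mice, with the defining marker Krt7 at 10.4 or below. Only 2 of these dim genes were tested, and they differed in sign. Krt19, which is also in the next list, had a log2 change of 0.71 and Epcam of -0.10 (limma, adjusted p 0.612 and 0.955). Portal fibroblast and mesothelial genes summed to 120.1 to 152 against 146 to 193.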

How the data were processed

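Liver RNA was prepared with TRIzol and RNeasy columns and hybridised to Affymetrix arrays, per the labels' protocols. The deposited intensity values came from MAS5, per the submitters' processing notes, which gives 1 linear signal per probe set. The sources used here name no scaling target, detection calls or genome build. The deposited scale was kept.

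After 64 control probe sets were set apart, 45037 remained. A pseudocount of 2 was added before log2, so the folds of dim probe sets are understated. The brighter 50% of probe sets (mean log2 of at least 4.32) were tested, 22519 in all, with limma 3.58.1 in R 4.3.3, 2 groups, and eBayes with an intensity trend. The trend brought 16.1 prior degrees of freedom, beside 4 residual ones. P-values were two-sided and adjusted by Benjamini-Hochberg over the 22519 probe sets, with calls at an adjusted p under 0.05. The tested probe set with the highest mean represented a gene. The procedure was tested on simulated data. Arrays give no counting depth, and their number (3 per group) limits the precision.

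Symbols came from the platform annotation (34945 probe sets with 1 symbol, 932 with several, 9160 with none), and 34741 matched a RefSeq table by gene identifier. Promoter windows came from RefSeq, GRCm38.p6, which held 26 of the 40 members. Of 170 genes in the other lists, 14 had no probe set under that symbol alone. The members and lists were chosen with earlier results of these data known. Values are printed per array for called members, members whose probe sets disagree and up to 4 further members per role with the smallest p, and from other lists for called genes and up to 2 with the smallest p. Further genes named with values were chosen after these were seen. Alternatives covered the pseudocount, filter, scaling, variance model, replicate block, threshold, probe set per gene and arrays left out. Same-numbered arrays of both groups had deviations correlated at 0.008, 0.044 and 0.005. With 3 arrays per group these values cannot settle whether the numbers pair them. Figures were drawn with matplotlib 3.10.9.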

Additional observations from a re-analysis of the deposited data

How the results depend on the processing

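The direction of 12 of the 35 tested members held under every alternative run, Snai2 and Vasn among them, and that of 23 turned in at least 1. Member probe sets called higher numbered 3, 0 without the intensity trend and 0 with isolated replicates 2 and 3 both left out, and 2 to 3 in the other alternatives; lower calls numbered 0 throughout. Without the trend, the log2 changes of Vasn (1.65), Snai2 (1.96) and its dimmer probe set (1.85) missed the threshold, as did Snai2 with a robust trend (1.96) and the dimmer probe set with no filter (1.85), median centring (1.81) and quantile normalization (1.82). With isolated replicates 2 and 3 left out they were 0.83, 1.21 and 1.93, all short of the threshold. The dimmer probe set ran from 1.37 to 2.38 with 1 array left out, and Vasn averaged over its probe sets was 0.96. The replicate block gave 265 higher and 248 lower calls over all probe sets, against 174 and 193 in the main fit. Among member probe sets 3 were called higher (Vasn 1.65, limma adjusted p 0.00249). The block was run because the groups share replicate numbers, and whether these pair the arrays cannot be told.

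Over all tested probe sets, higher calls numbered 174, and 81 with no filter, 264 with the upper 30% of probe sets, 15 without the trend, 88 without isolated replicates 2 and 3, 303 at an adjusted p under 0.10, and 97 to 187 with 1 array left out. Lower calls numbered 193, and 101 with no filter, 16 without the trend and 82 to 243 with 1 array left out. Genes of the other lists called higher numbered 0, and 1 with a pseudocount of 16, the upper 30%, the block or a threshold of 0.10, and 0 to 2 with 1 array left out. Those called lower numbered 1, and 0 with no filter or no trend, 3 with the upper 30%, 2 with median centring, quantile normalization, both isolated arrays left out or a threshold of 0.10, and 0 to 2 with 1 array left out.

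With isolated replicates 2 and 3 left out, the median log2 change of collagens was -0.14 and that of enzymes and inhibitors -0.21. The latter was -0.07 with the upper 30% or over all tested probe sets, and -0.08 to 0.17 with 1 array left out, while the TGF-beta role had 0.86 with the upper 30%, where fewer of its genes were tested. Directions that turned without those 2 arrays were Col1a2 (-0.21), Col3a1 (-0.06), Col4a1 (-0.17), Col4a2 (-0.33), Col6a1 (-0.32), Lamb1 (0.04), Dcn (-0.04), Lum (-0.06), Mmp2 (-0.51), Acta2 (-0.49), Vim (-0.21) and Tgfbr2 (-0.40). Averaged over all probe sets of the gene they were Col5a1 (-0.14), Col6a2 (0.59), Lamb1 (0.04), Lamc1 (0.10), Dcn (-0.13), Sparc (-0.03), Acta2 (-0.17), Reln (0.22) and Tgfbr2 (-0.09). Median centring and quantile normalization turned Col4a1 (-0.04 and -0.05) and Vim (-0.01 and -0.03). With 1 array left out, ranges that crossed 0 were -0.28 to 0.69 for Acta2, -0.03 to 0.23 for Bgn, -0.01 to 0.36 for Col1a2, -0.23 to 0.15 for Col4a1, -0.10 to 0.30 for Col4a2, -0.02 to 0.15 for Col5a1, -0.23 to 0.22 for Col6a3, -0.02 to 0.17 for Dcn, -0.14 to 0.09 for Fn1, -0.37 to 0.06 for Lamc1, -0.05 to 0.26 for Lum, -0.12 to 0.64 for Mmp2, -0.16 to 0.13 for Reln, -0.56 to 0.47 for Tagln, -0.06 to 0.31 for Tgfbr2, -0.18 to 0.01 for Timp2 and -0.26 to 0.46 for Vim. Tgfbr1 ran from -0.23 to 0. None of these genes was called in any of those fits, and the cause of each shift was not tested.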

Other observations

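Among matrix genes too dim to be tested, Mmp9, the gelatinase of inflammatory cells, read 25, 34.5 and 36.2 in control replicates 1, 2 and 3 and 10.7, 2.24 and 6.22 in isolated ones, without overlap. Mmp3, another metalloproteinase, went the other way without overlap, at 3.68, 0.883 and 9.26 against 11.5, 19 and 18.2. Of all tested genes 16% did not overlap, and that share was not counted for dim genes. Snai1, the relative of Snai2 that is best known from fibrosis, read 11.2, 9.9 and 10.2 against 4.62, 4.08 and 9.45, below the filter and opposite in direction to Snai2. These dim genes were chosen after their values were seen. Beside Id2, the related bone morphogenetic protein targets did not pass the test. Id1 read 82.3, 97 and 74.2 in control livers and 25.7, 79.4 and 64.7 in isolated livers (log2 change -0.69, limma adjusted p 0.368), and Id3 had a log2 change of 0.44 (0.38), the opposite sign. Bmp2, a ligand of that pathway, had a log2 change of -0.51 (0.305), and Smad6, an inhibitory SMAD, of 0.61 (0.359).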
